A study of Mus musculus with 6 samples.

Results

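Metallothioneins, the small cysteine-rich proteins that hold zinc and copper inside cells, and the genes that sense and move zinc around them were followed in the villus epithelium of mice in which Smad4 was deleted and β-catenin was stabilized. The set has 7 genes, which are Mt1, Mt2, the regulator Mtf1, the zinc exporter gene Slc30a1 and the zinc importer genes Slc39a4, Slc39a5 and Slc39a14. They were found by gene symbol among the 20409 features of the count table, and all 7 were among the 13346 features that passed the filter on low counts. The set was chosen for the rise of Mt2 in this same comparison, so the differences of its members are given as a description, with their errors and without p-values. Where a member is said to be called, this only states which side of the threshold the fit across all genes put it on.

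RNA of the villus epithelium of the duodenum was sequenced in bulk from 3 wild-type (WT) and 3 double mutant (DM) mice, with 1 library per mouse. DM mice carried Smad4 fl/fl, Ctnnb exon3 fl/wt and Villin-CreERT2, on a background enriched for C57BL6. Tamoxifen (0.05 g/kg, intraperitoneal, 4 days) removed Smad4 and exon 3 of β-catenin throughout the intestinal epithelium, and the villi were taken 7 days after induction. WT mice were littermates that received no injection, and whether they carried the floxed alleles or Cre was not stated, so an effect of tamoxifen or of Cre cannot be told apart from that of the mutations. Ages were matched but are not given in the sources used here, and each group held 1 male (replicate 1) and 2 females. In both groups, the epithelium was released in EDTA, a chelator that binds zinc along with other divalent metals, and its part in the levels below was not tested.

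Metallothioneins bind zinc and copper through cysteine thiolates, and their transcription is switched on by zinc, cadmium, glucocorticoids, cytokines and hypoxia. MTF1 is the transcription factor that senses free zinc and binds metal response elements in the promoters of metallothionein genes and of Slc30a1. In the intestine, ZIP4 (the product of Slc39a4) takes up dietary zinc at the apical membrane, ZIP5 (Slc39a5) and ZIP14 (Slc39a14) work at the basolateral membrane, and ZnT1 (Slc30a1) exports zinc to the blood side.

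Mt1 and Mt2 lie next to each other on the plus strand of chromosome 8 in the mm9 build, Mt2 (ENSMUSG00000031762) at 96696518 to 96697467 and Mt1 (ENSMUSG00000031765) at 96702989 to 96704225, with 5521 bp between them. Their coding sequences are shown for the cysteine codons that give the family its metal binding, and because their likeness bears on how well reads can be assigned to one or the other. Each is given 5′ to 3′ from the mm9 annotation, with the codons for cysteine in capitals.
Mt1 coding sequence: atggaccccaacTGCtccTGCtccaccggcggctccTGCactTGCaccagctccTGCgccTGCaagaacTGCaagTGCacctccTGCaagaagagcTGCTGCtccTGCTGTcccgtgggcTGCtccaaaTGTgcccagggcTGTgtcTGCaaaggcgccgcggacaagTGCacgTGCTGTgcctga
Mt2 coding sequence: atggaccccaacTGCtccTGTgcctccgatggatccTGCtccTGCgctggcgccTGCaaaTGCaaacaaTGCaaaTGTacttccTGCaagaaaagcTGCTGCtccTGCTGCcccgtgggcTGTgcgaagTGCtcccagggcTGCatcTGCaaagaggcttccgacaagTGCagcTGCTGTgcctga
Both coding sequences have 186 bases and 61 codons, 20 of which encode cysteine. They are identical at 148 of 186 bases (79.6%), and the longest stretch shared by the whole transcripts is 20 bases, so a longer read can tell the genes apart.

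The promoters are shown for their matches to the metal response element, the motif that MTF1 is known to bind. The 250 bases before each start are taken from the RefSeq promoter table (GRCm38.p6, plus strand), at chr8:94178839-94179088 for Mt1 and at chr8:94172368-94172617 for Mt2, with matches to a metal response element (TGCACNC or TGCGCNC, either strand) in capitals.
Mt1 promoter: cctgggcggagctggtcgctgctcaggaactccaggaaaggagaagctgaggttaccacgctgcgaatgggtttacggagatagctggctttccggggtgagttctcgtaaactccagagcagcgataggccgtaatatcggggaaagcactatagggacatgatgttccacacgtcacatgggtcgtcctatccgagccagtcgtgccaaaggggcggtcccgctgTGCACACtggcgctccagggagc
Mt2 promoter: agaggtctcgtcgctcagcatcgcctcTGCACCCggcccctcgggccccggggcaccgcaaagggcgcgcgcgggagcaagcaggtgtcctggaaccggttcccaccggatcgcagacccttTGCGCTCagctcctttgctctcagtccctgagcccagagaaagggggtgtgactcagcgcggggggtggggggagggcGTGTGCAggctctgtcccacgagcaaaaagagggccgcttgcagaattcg
Of the matches, 3 lay in these bases of Mt2 and 1 in those of Mt1. Including the first 50 bases after the start given by the table, the Mt2 window held 4 matches and the Mt1 window held 3. These numbers depend on the annotated start. The coding sequence begins at base 223 of the Mt1 transcript and base 231 of the Mt2 transcript. Matches beyond the first 50 bases were not counted, so the genes are not ranked by them. In the table, 25.7% of 32851 promoters held at least 1 match, 1.97% at least 3 and 0.517% at least 4. Of the other members, the Slc30a1 window held 2 matches, 1 of the windows of Slc39a5 held 1 and that of Mtf1 held none, while Slc39a4 and Slc39a14 are named only. A match is a description of letters and does not show that a site was used. Among all tested genes with a promoter in the table, 20.1% of the 5332 genes without a match were called higher in DM villi, against 20.6% of the 2364 genes with 1 match, 20.4% of the 825 with 2, 20.1% of the 268 with 3 and 21.6% of the 88 with 4 or more.

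Depth was 26337318 counts in WT 1 and 19678507 to 20613988 counts in the other 5 mice. Levels are given as CPM, the counts of a gene scaled to a common library size after TMM normalization, with mean ± SD over 3 mice, and log2 fold changes (DM over WT) come from edgeR with their standard errors (SE). The deletion was visible in the data, with Smad4 at 120, 180 and 144 CPM in WT 1 to 3 and at 26.02, 36.79 and 32.10 CPM in DM 1 to 3. Summed enterocyte markers took 3.61 to 4.03% of all counts in WT and 2.33 to 2.44% in DM mice, and 6 of the 8 markers fell. WT 1 stood apart from the other mice, with 0.0114% of counts on goblet markers against 1.06 to 1.08% in the other WT and 0.493 to 0.547% in DM mice, and 0.000725% on Paneth markers against 0.0849 to 0.144% and 0.0166 to 0.0263%. Stem cell markers took 0.00308 to 0.0112% in WT and 0.0179 to 0.0245% in DM mice, and 3 of 6 rose. Leukocyte markers took 0.0640 to 0.269% in WT and 0.121 to 0.336% in DM mice. Most of these counts came from Cd74, at a mean of 1775 CPM in WT and 2249 CPM in DM mice (log2 fold change 0.34, not called). The other tested leukocyte markers ran from -1.29 (Ptprc) to 0.02 (Gzma). Of the 7 tested, 2 fell, Ptprc by 1.29 (edgeR adjusted p = 0.00545) and Cd8a by 0.92 (edgeR adjusted p = 0.0191) on the log2 scale. Values of the members without WT 1 are therefore given where they move, and the part of cell makeup in the differences was not tested. In bulk RNA, fewer cells of a type cannot be told apart from less RNA per cell.

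Mt2 showed the widest difference of the set. It was almost silent in WT villi, at 1.25, 3.10 and 1.41 CPM in WT 1, 2 and 3, from only 30, 57 and 28 counts. In DM villi it reached 56.8, 132 and 55.3 CPM in DM 1, 2 and 3, from 1212, 2848 and 1165 counts. The lowest DM mouse thus lay far above the highest WT mouse, and DM 2 stood apart from the other DM mice. The means were 1.92 ± 1.02 and 81.4 ± 43.8 CPM, a log2 fold change of 5.43 (SE 0.56), or 43.0-fold. It was 4.88 without DM 2, 5.93 without WT 2 and 5.18 without WT 1. Ranked by CPM among the tested genes, Mt2 moved from place 10680 in WT to place 2291 in DM villi.

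Mt1 was already expressed in WT villi and followed the same order among mice. Its level was 17.0, 43.4 and 31.5 CPM in WT 1, 2 and 3 and 194, 293 and 175 CPM in DM 1, 2 and 3. As for Mt2, the groups did not overlap, and WT 2 and DM 2 were the highest of their groups. The means of 30.7 ± 13.2 and 221 ± 63.3 CPM gave a log2 fold change of 2.85 (SE 0.38), or 7.21-fold. It was 2.56 without WT 1 and 3.19 without WT 2. Its place by CPM moved from 4934 to 722.

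**Figure D1:**
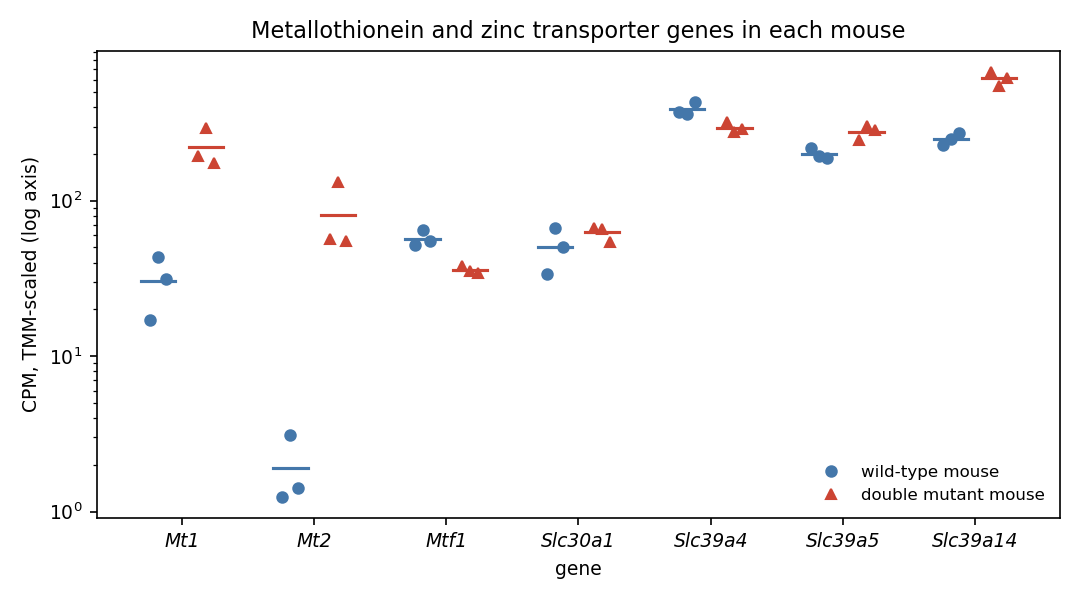
Expression of the 7 genes in each mouse, in TMM-scaled CPM on a log axis (blue circles, 3 WT mice; red triangles, 3 DM mice; horizontal lines, group means). Mt2 and Mt1 show the widest gaps between the groups, and only Slc30a1 has groups that overlap.

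Because Mt2 differed more than Mt1, the balance between them shifted. There were 13.6, 14.0 and 22.3 Mt1 counts for each Mt2 count in WT 1, 2 and 3, but only 3.41, 2.22 and 3.17 in DM 1, 2 and 3. Mt2 made up 6.83% of the counts on both genes in WT 1 (95% exact interval 4.66 to 9.61), 6.66% in WT 2 (5.08 to 8.54) and 4.29% in WT 3 (2.87 to 6.15). In DM villi the shares were 22.7% (21.6 to 23.8), 31.1% (30.1 to 32.01) and 24.0% (22.8 to 25.2). These intervals cover counting error within a library and not the spread between mice. The ratio averaged 16.7 ± 4.89 in WT and 2.94 ± 0.631 in DM villi. Summed over both genes, the level was 32.6 ± 14.1 CPM in WT and 302 ± 107 CPM in DM villi.

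**Figure D2:**
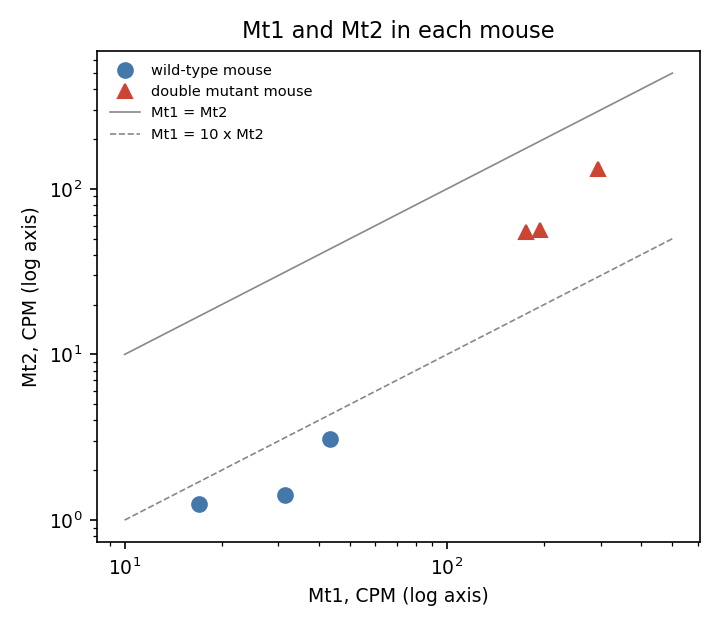
Mt2 against Mt1 in each mouse, both in CPM on log axes (blue circles, WT; red triangles, DM); the solid line marks equal levels and the dashed line 10 times more Mt1 than Mt2. The 3 WT mice lie below the dashed line and the 3 DM mice between both lines.

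Neighbouring genes were compared with Mt1 and Mt2 to see whether the difference extended along the chromosome. Within 250 kb of Mt2, the table held 13 other genes, of which 8 passed the filter on low counts. Of these, 2 rose in DM villi and 6 did not pass the test (edgeR's quasi-likelihood test, adjusted p under 0.05 over all tested genes), where 19.7% of all tested genes were called higher. Nup93, which encodes a nuclear pore scaffold protein and is the next tested gene after Mt1, was at 4.13 ± 0.834 CPM in WT and 12.1 ± 1.43 CPM in DM villi and rose by 1.55 on the log2 scale (SE 0.21, edgeR adjusted p = 0.00102). Nudt21, which encodes a subunit of a cleavage factor for mRNA 3′ ends, rose by 0.77 (SE 0.15, edgeR adjusted p = 0.00457). Both calls held when any 1 mouse was left out. Bbs2, the nearest tested gene before Mt2, was among the 6 without a call. Mt4, the metallothionein of stratified epithelia, had no count in 5 of the mice and 2 counts in DM 2, and the level of Mt3 was not analysed here.

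**Figure D3:**
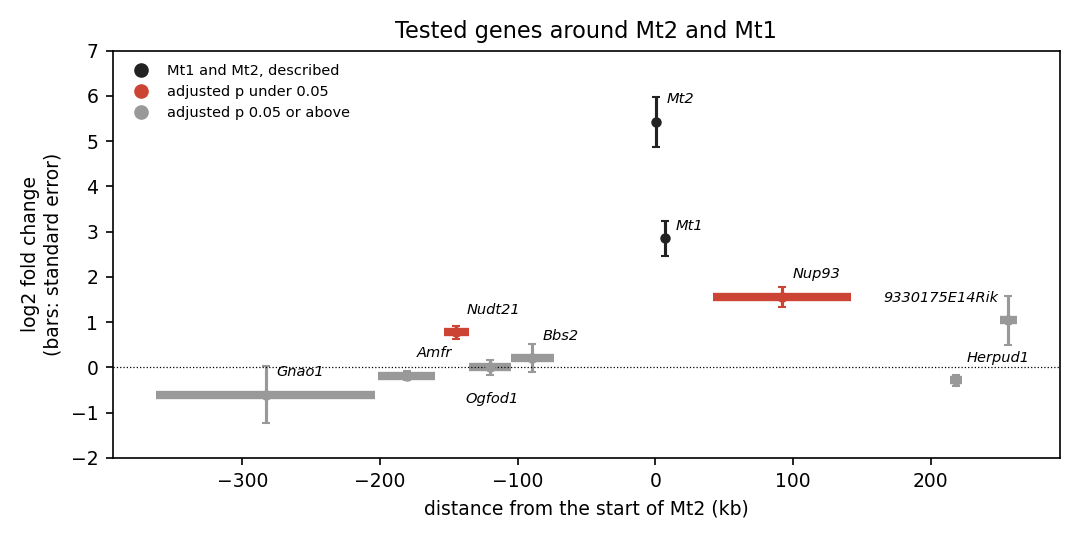
Log2 fold change (DM over WT) of the tested genes within 250 kb of Mt2, against the distance from the start of Mt2 in kb; thick horizontal bars span each gene and vertical bars are the SE. Mt2 (5.43) and Mt1 (2.85) stand above their neighbours, of which Nup93 (1.55) and Nudt21 (0.77) passed the test.

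Mtf1 (ENSMUSG00000028890, chromosome 4, 124479348 to 124527044, plus strand), the zinc-sensing regulator of the metallothionein genes, was lower in DM villi. Its level was 51.7, 64.7 and 54.6 CPM in WT 1, 2 and 3 and 38.2, 35.3 and 34.2 CPM in DM 1, 2 and 3. Every DM mouse lay below every WT mouse, and the DM mice were close together. The means were 57.0 ± 6.83 and 35.9 ± 2.04 CPM, a log2 fold change of -0.67 (SE 0.12), which ran from -0.73 to -0.57 when each mouse was left out. The transcript level of Mtf1 thus differed in the direction opposite to that of Mt1 and Mt2. These data hold no measure of the MTF1 protein or of zinc.

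Slc30a1 (ENSMUSG00000037434, chromosome 1, 193730646 to 193737126, plus strand) encodes ZnT1, the exporter that MTF1 is known to induce together with the metallothioneins. It was at 33.6, 67.0 and 49.99 CPM in WT 1, 2 and 3 and at 67.2, 65.8 and 54.3 CPM in DM 1, 2 and 3. The groups overlapped, since WT 2 was as high as DM 1, while WT 1 was the lowest of all. The log2 fold change was 0.32 (SE 0.23), 0.09 without WT 1 and 0.58 without WT 2, and the gene was called under none of the settings tried. The spread in WT mice, 50.2 ± 16.7 against 62.4 ± 7.05 CPM in DM mice, limits what can be seen for this gene.

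Slc39a14 (ENSMUSG00000022094, chromosome 14, 70703274 to 70751232, minus strand), which encodes ZIP14, an importer of zinc, manganese and non-transferrin iron, had the widest difference among the transporters of the set. It was at 228, 249.1 and 271 CPM in WT 1, 2 and 3 and at 673, 549 and 620 CPM in DM 1, 2 and 3. The groups were far apart, and every DM mouse lay above every WT mouse. The means were 249.1 ± 21.7 and 614 ± 62.3 CPM, a log2 fold change of 1.30 (SE 0.12), or 2.46-fold, which ran from 1.24 to 1.37 when each mouse was left out. Its place by CPM moved from 758 to 176.

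The other importer genes of the set, Slc39a4 and Slc39a5, differed little and in opposite directions. Slc39a4 (ENSMUSG00000063354, chromosome 15, 76442815 to 76447322, minus strand), the gene mutated in the zinc deficiency acrodermatitis enteropathica, was at 370, 360 and 431 CPM in WT 1, 2 and 3 and at 320, 278 and 288 CPM in DM 1, 2 and 3. The groups did not overlap, and the log2 fold change was -0.39 (SE 0.12). With scaling by library size alone it was -0.20 and no longer called, and its call was also lost without WT 3 (-0.31), DM 2 (-0.35) or DM 3 (-0.37). Slc39a5 (ENSMUSG00000039878, chromosome 10, 127832990 to 127838280, minus strand), whose product returns zinc from the blood side to the enterocyte, was at 218, 195 and 188 CPM in WT 1, 2 and 3 and at 247, 304 and 285 CPM in DM 1, 2 and 3. Here all DM mice lay above all WT mice, with a log2 fold change of 0.48 (SE 0.12), and the call was lost without WT 2 (0.45), WT 3 (0.43), DM 2 (0.41) or DM 3 (0.46).

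Over the set, 6 of 7 members were called at an adjusted p under 0.05, 4 higher (Mt1, Mt2, Slc39a5 and Slc39a14) and 2 lower (Mtf1 and Slc39a4). Among all tested genes, 36.8% were called, 19.7% as higher and 17% as lower, of 4905 genes called in all. With scaling by library size alone, 72.4% of the called genes were higher, against 53.7% with TMM, and the median log2 fold change of all genes moved from 0.02 to 0.22. A log2 fold change of at least 2 in size together with the call was seen in 2 members, Mt1 and Mt2, and in 5.3% of all tested genes. The groups did not overlap for 6 members, and for 52.4% of all tested genes. As the members were chosen on this contrast, nothing is read from these counts. The spans of Mtf1, Slc30a1 and Slc39a5 overlap a gene annotated on the opposite strand. The strand setting of the counting is not given in the sources used here, so reads from any shared stretch cannot be told apart. How much exon sequence is shared was not examined.

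Compared per kilobase of exon, the order of the set changed. In WT villi the mean levels were 171 CPM per kb for Slc39a4, 93.6 for Slc39a5, 40.7 for Mt1, 23.6 for Slc39a14, 9.58 for Slc30a1, 6.87 for Mtf1 and 3.45 for Mt2. The ranges over mice overlapped between Mt1 and Slc39a14 and between Slc30a1 and Mtf1. In DM villi the order was Mt1 at 293 CPM per kb, Mt2 at 146, Slc39a4 at 130.4, Slc39a5 at 130.1, Slc39a14 at 58.2, Slc30a1 at 11.9 and Mtf1 at 4.32. Here the ranges of each neighbouring pair from Mt1 to Slc39a5 overlapped, and the others did not. Mt2 thus went from last to the group of the highest levels, while Mtf1 went to last. For Mt1, the exon length includes a longer transcript, and with that of the shorter transcript shown above alone (540 bases) its mean was 56.8 CPM per kb in WT and 409 in DM villi.

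The rest of the zinc transporter families was examined from a list of 20 genes, 17 of which passed the filter. In DM villi 4 rose (edgeR's quasi-likelihood test, adjusted p under 0.05 over all tested genes), none fell and 13 did not pass the test, where 36.8% of all tested genes were called and 19.7% were called higher. The list had a median log2 fold change of 0.24 against 0.02 over all tested genes. It includes Slc39a2, with 6, 5 and 14 counts in WT 1 to 3 and 20, 26 and 16 in DM 1 to 3. That gene reached the filter's CPM in 3 DM mice but in only 1 WT mouse, so the median is a description only. At an unadjusted p under 0.05, 2 were lower by edgeR, and after adjustment DESeq2 called 1 lower and limma-voom none. Slc39a8, which encodes ZIP8, the closest relative of ZIP14, was at 1.21, 3.97 and 3.69 CPM in WT 1, 2 and 3 and at 15.0, 11.7 and 15.2 CPM in DM 1, 2 and 3. It was low in every WT mouse and rose by 2.25 on the log2 scale (SE 0.39, edgeR adjusted p = 0.0035). Slc39a11, which encodes the Golgi importer ZIP11, was at 35.9, 53.4 and 44.0 CPM in WT and 107, 117 and 107 CPM in DM 1 to 3. The DM mice were nearly equal and well above all WT mice, a log2 fold change of 1.31 (SE 0.15, edgeR adjusted p = 0.000499). Both calls held when any 1 mouse was left out.

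The other calls were less firm. Slc39a10, which encodes the plasma membrane importer ZIP10, rose by 0.94 (SE 0.28, edgeR adjusted p = 0.0281), from a level of 1.46 to 1.69 CPM in WT to 2.73 to 3.28 CPM in DM mice, and was called in 1 of the 6 fits with a mouse left out. Slc30a4, which encodes the vesicular exporter ZnT4, rose by 0.57 (SE 0.19, edgeR adjusted p = 0.0418), and was called in 2 of those 6 fits. Its groups overlapped, with WT 1 at 111 CPM and DM 2 at 110 CPM. Among the other exporters (ZnT), 1 of 7 tested genes rose and the median was -0.02. Among the other importers (ZIP), 3 of 10 rose and the median was 0.50, which also includes Slc39a2 (1.24, not called). Without WT 2, DM 1 or DM 3, Slc39a8 and Slc39a11 were the only ones called higher, and 1 gene was called lower without DM 1 (Slc39a9) and 1 without DM 3 (Slc30a2).

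**Figure D4:**
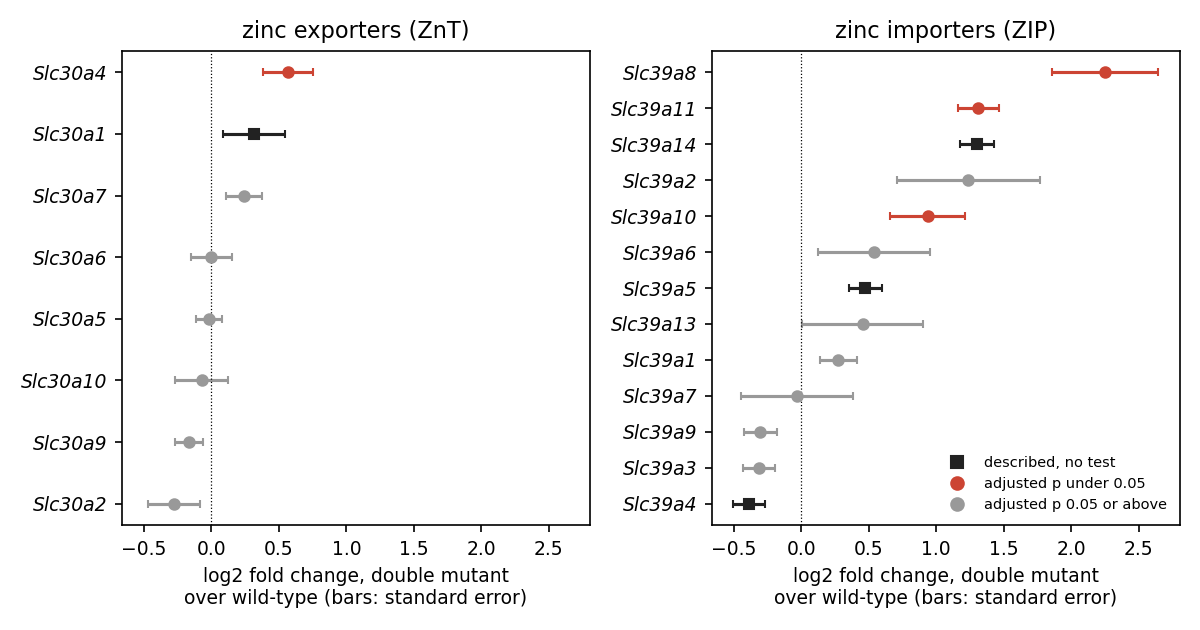
Log2 fold change (DM over WT) of every tested ZnT and ZIP gene with its SE as a bar; black squares are members of the set, given without a test, and red circles passed the test. The ZnT genes run from -0.28 (Slc30a2) to 0.57 (Slc30a4), while Slc39a8 (2.25), Slc39a11 (1.31) and Slc39a14 (1.30) lie highest among the ZIP genes.

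Metallothioneins also bind copper, so genes of copper handling were examined. Of 11 tested, none rose and 1 fell (by edgeR's quasi-likelihood test), where 19.7% of all tested genes were called higher and 17% lower, and the median log2 fold change was -0.19. With a mouse left out, 1 gene was called higher without WT 1, WT 3 or DM 1, and 2 were called lower without WT 3, DM 1 or DM 2. At an unadjusted p under 0.05, 1 was higher by edgeR, and neither DESeq2 nor limma-voom called any higher after adjustment. With scaling by library size alone, which raised the median of all genes to 0.22, the list's median was 0.01 and 2 genes were called higher, Atox1 (0.66, edgeR adjusted p = 0.0201), a copper chaperone gene, and Commd1 (0.49, edgeR adjusted p = 0.0365). The gene that fell, under both scalings, was Slc31a1, which encodes the copper importer CTR1. It was at 617, 555 and 609 CPM in WT 1, 2 and 3 and at 403, 338 and 347 CPM in DM 1, 2 and 3, a log2 fold change of -0.71 (SE 0.12, edgeR adjusted p = 0.0022). The DM mice all lay below the WT mice, and the call held when any 1 mouse was left out. Atp7a and Atp7b, the copper pumps, did not pass the test, with values of -0.12 and -0.41.

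Other agents that are known to raise metallothioneins were examined through lists of genes known to respond to them, again beside 19.7% of all tested genes called higher and 17% called lower. Of 9 tested glucocorticoid-induced genes, 2 rose and 3 fell, with a median of -0.24, and the number that rose was 1 without WT 1 and 4 without WT 2. Sgk1, a kinase gene that regulates sodium transport, fell by 2.66 on the log2 scale (SE 0.43, edgeR adjusted p = 0.00476), from 65.9 to 91.4 CPM in WT to 7.09 to 21.6 CPM in DM mice. Fkbp5, a cochaperone of the glucocorticoid receptor, rose by 2.05 (SE 0.44, edgeR adjusted p = 0.0102), a call lost without WT 1 (1.93, edgeR adjusted p = 0.0546). Ddit4, an inhibitor of mTORC1, rose by 1.38 (SE 0.20, edgeR adjusted p = 0.00149). The members of this list thus moved in both directions.

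Of 7 tested genes of STAT3 signalling and the acute phase, 3 were called higher and 2 lower, with a median of 0.20. The number called higher was 1 (Reg3g) without WT 3 or DM 2 and 2 without WT 1, WT 2 or DM 3, and the number called lower was 1 (Pim1) without WT 2, WT 3, DM 2 or DM 3. Reg3g, which encodes an antibacterial lectin, was at 1217, 2785 and 2874 CPM in WT 1, 2 and 3 and at 7470, 14300 and 9986 CPM in DM 1, 2 and 3, with WT 1 lowest and DM 2 highest. Its log2 fold change was 2.21 (SE 0.39, edgeR adjusted p = 0.00517). Lcn2, the siderophore-binding lipocalin, had 9, 6 and 10 counts in WT 1, 2 and 3 and 17, 30 and 25 in DM 1, 2 and 3. It passed the filter on low counts only through the DM mice, so its call is not read as a rise. The 3 called higher and the median of 0.20 still include it. Pim1, a kinase gene induced by STAT3, fell by 1.24 (SE 0.12, edgeR adjusted p = 0.000231).

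Of 12 tested hypoxia-induced genes, 5 rose and 2 fell, with a median of 0.41. Without DM 1, 3 were called higher (Ankrd37, Car9 and Pdk1) and 1 lower (Egln3), and 1 was called lower without WT 3, DM 2 or DM 3 as well. Ankrd37 rose by 1.87 (SE 0.13, edgeR adjusted p = 7.3e-05), and Car9, which encodes carbonic anhydrase IX, rose by 1.67 (SE 0.18, edgeR adjusted p = 0.000379), from 53.4 to 88.7 CPM in WT to 226 to 241 CPM in DM mice. Egln3, a prolyl hydroxylase gene of the same response, fell by 1.44 (SE 0.16, edgeR adjusted p = 0.000379).

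Of 9 tested genes of metal and oxidative stress, 1 rose and 4 fell, with a median of -0.56. Hmox1, which encodes the heme-degrading heme oxygenase 1, rose by 1.67 (SE 0.45, edgeR adjusted p = 0.0189). It had only 14, 24 and 30 counts in WT 1, 2 and 3 (0.583 to 1.515 CPM) and was at 2.16 to 4.60 CPM in DM mice. Its call was lost without DM 2 (1.58) and without DM 3 (1.46), and its log2 fold change was 1.35 without WT 1. Osgin1, an oxidative stress response gene, fell by 1.67 (SE 0.14, edgeR adjusted p = 0.00015), and Gclc, which encodes the catalytic subunit for glutathione synthesis, fell by 1.33 (SE 0.13, edgeR adjusted p = 0.000275). The DM mice were at 22.2 to 28.2 CPM of Gclc against 58.9 to 68.1 CPM in WT mice. Over the copper, hormone and stress lists together, 23 of 48 tested genes were called, 11 higher (7 without DM 2) and 12 lower. Among all tested genes, 36.8% were called, 19.7% higher and 17% lower. The 11 include Lcn2, which passed the filter on low counts only through the DM mice.

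**Figure D5:**
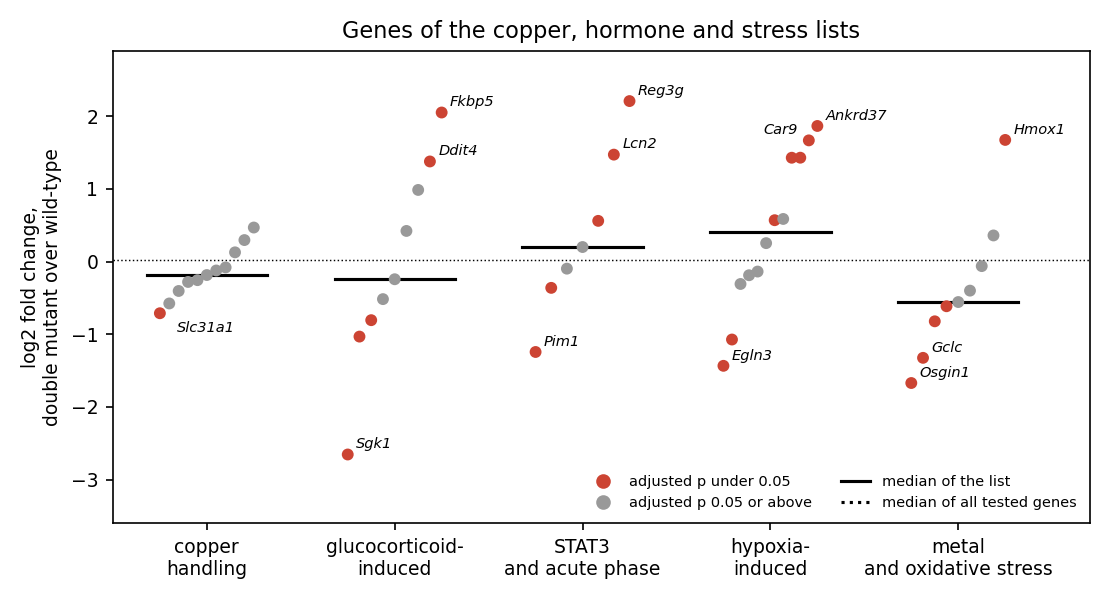
Log2 fold change (DM over WT) of each tested gene of the copper, hormone and stress lists (points; red passed the test, grey did not), with the list medians as solid lines and the median of all tested genes as a dotted line. Genes of the 4 hormone and stress lists lie on both sides of 0, and the medians run from -0.56 to 0.41.

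The genes whose log2 CPM followed that of Mt2 most closely over the 6 mice were sought among 10614 tested genes with a mean of at least 50 counts. By Pearson's r the named genes among the first 5 were Nop14 (0.997), which encodes a nucleolar factor of small ribosomal subunit maturation, Acer3, Tbc1d2 and 4933434E20Rik, while Mt1 stood at place 86 (0.987). Such values mostly reflect the gap between the groups. With the group means removed, the closest were Nop14 (0.996), Ksr1, Fam160b2, Ptk6 and Stau2, and Mt1 stood at place 166 (0.856). With 6 mice that share their groups and libraries, these are descriptions only.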

How the data were processed

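The authors sequenced polyA-selected libraries. Alignment was to mm9 (HISAT2), and the deposited values are raw featureCounts counts per gene, neither normalized nor pooled, in a column for each mouse. The strand setting and filters on multiply mapped reads are not given in the sources used here. For the isolation of villi, an EDTA concentration of 0.5 mM and repeated incubations of 10 min are stated in the labels, whereas the methods state another concentration. The 7 members and all gene lists were chosen with earlier results of these data known.

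From the counts onward, R 4.3.3 with edgeR 4.0.16, DESeq2 1.42.0 and limma 3.58.1 was used. Of 20073 Ensembl identifiers, 20032 matched the mm9 GENCODE annotation, the source of symbols, coordinates, exon lengths and coding sequences. Low counts were removed by filterByExpr (by group), and the remaining genes were scaled by TMM, fitted by glmQLFit (robust) and tested by glmQLFTest, with Benjamini-Hochberg adjustment over all 13346 genes. A gene was called at an adjusted p under 0.05. The SE was obtained by dividing each log2 fold change by √F. The scripts were tested on simulated data. Promoters came from the RefSeq table of GRCm38.p6, in which 5 of the 7 members were found. All members, all called ZnT and ZIP genes and up to 3 called genes per other list with the widest changes are named. Totals of 19678507 to 26337318 counts per mouse set the counting precision, and 3 mice per group set that of the comparison. Alternatives were DESeq2, limma-voom, RLE or library-size scaling, other filters, sex as a covariate, the replicate number as a block and each mouse left out.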

Additional observations from a re-analysis of the deposited data

How the results depend on the processing

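All 98 alternative values of the members' log2 fold changes kept their sign, and 88 also kept their side of the threshold; the exceptions were values of Slc39a4 and Slc39a5. The count of called genes was 4905, with 3442 to 5144 when each mouse was left out, and the number of called members was 6, with 4 to 6. Asking also for a log2 fold change of at least 2 in size left 708 of all genes, 2 members, 1 of the 4 other zinc transporter genes and 3 of the 23 called genes of the copper, hormone and stress lists, since fewer genes pass by construction. With each mouse left out, 2 to 4 other zinc transporter genes were called (2 without WT 2) and 18 to 25 list genes. Restricting promoters to the 250 bases before the start lowered the share with a metal response element from 25.7% to 21.4%.

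With the replicate number as a replicate block, 3834 genes, 4 members (Slc39a4 at -0.39 and Slc39a5 at 0.47 lost their calls), 2 other zinc transporter genes and 20 list genes were called; the cause was not tested. Same-numbered mice did not deviate together (correlations of 0.0224, -0.109 and 0.0123), so the numbers were not taken as pairs. The numbers are those of the labels, and the sample sheet of the study numbers the mice differently. The low counts of Mt2 in WT mice (28 to 57) and 3 mice per group limit the precision of its fold change.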
